A study of Homo sapiens with 20 samples.

Results

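The genes described here are the cyclin-dependent kinase (CDK) inhibitors of the CIP/KIP family (CDKN1A, CDKN1B and CDKN1C) and of the INK4 family (CDKN2A, CDKN2B, CDKN2C and CDKN2D), 7 in all. They were followed through every probe set that the platform's annotation gives to a single member: 13 probe sets for 6 genes, out of 11963 genes named on the array. No probe set in that annotation carries the name of CDKN2C, which was therefore not analysed here. Their level was read in each of 10 human cell lines of T-ALL, acute lymphoblastic leukemia of T-cell precursors, and so was their change after treatment with CompE, an inhibitor of gamma-secretase, the protease that releases the active part of NOTCH receptors. The lines were RPMI8402, PF382, P12-ICHIKAWA, MOLT3, KOPTK1, HPB-ALL, DND41, CUTLL1, CCRF-CEM and ALL-SIL, and all carry activating NOTCH1 mutations per the series' design text. Each line gave 1 array after 100 nM CompE for 72 h and 1 array after vehicle only (DMSO) for 72 h, 20 arrays in all. The dose stands on the labels of 4 of the CompE samples and, for all, in the design text. Each established line descends from a single patient's leukemia, so the 10 lines are the replicates and a level within a line and treatment is a single array. The DMSO labels of P12-ICHIKAWA, MOLT3 and CCRF-CEM give, in place of the growth medium on the CompE labels, a name that is also that of a cell line, so they may be in error.

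CDK inhibitors hold back the kinases that drive a cell from G1 into S phase. INK4 proteins bind CDK4 and CDK6 and keep D-type cyclins from activating them, whereas CIP/KIP proteins bind complexes of cyclin and CDK, above all those of CDK2. The CDKN2A gene also makes ARF, a protein from another reading frame that protects p53 by restraining MDM2, and CDKN2A and CDKN2B lie side by side on the short arm of chromosome 9 in a region that is often deleted in T-ALL. CDKN1A is a classic target of p53, CDKN1B protein is removed in cycling cells through the ubiquitin ligase subunit SKP2, and CDKN1C is an imprinted gene on chromosome 11.

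The 250 bases before the annotated start of CDKN2D, the member whose RNA changed, and of CDKN1B, the member with the next smallest p, are printed with the regions before both annotated starts of CDKN2A, the member that differed most between lines. They are RefSeq sequences of build GRCh38.p14, written 5′ to 3′ along the gene. Capitals mark matches, on either strand, to any of 5 searched motifs: TGGGAA (bound by RBPJ, the DNA partner of NOTCH), CACGTG (the E-box of MYC), CACNAG (the N-box of HES repressors), TTTCCCGC (E2F) and GTAAACA (FOXO).
CDKN2D, chr19:10568980-10569229, minus strand: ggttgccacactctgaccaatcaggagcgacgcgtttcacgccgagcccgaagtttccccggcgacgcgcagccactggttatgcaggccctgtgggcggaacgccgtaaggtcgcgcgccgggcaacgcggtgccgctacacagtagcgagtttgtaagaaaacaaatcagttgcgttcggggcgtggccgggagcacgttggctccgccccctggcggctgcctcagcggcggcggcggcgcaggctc
CDKN1B, chr12:12717118-12717367, plus strand: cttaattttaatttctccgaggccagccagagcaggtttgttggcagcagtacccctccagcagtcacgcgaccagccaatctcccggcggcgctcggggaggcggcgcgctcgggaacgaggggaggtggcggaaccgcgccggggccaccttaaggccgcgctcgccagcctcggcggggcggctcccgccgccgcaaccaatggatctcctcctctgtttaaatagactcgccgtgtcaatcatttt
CDKN2A, upstream start, chr9:21995325-21995574, minus strand: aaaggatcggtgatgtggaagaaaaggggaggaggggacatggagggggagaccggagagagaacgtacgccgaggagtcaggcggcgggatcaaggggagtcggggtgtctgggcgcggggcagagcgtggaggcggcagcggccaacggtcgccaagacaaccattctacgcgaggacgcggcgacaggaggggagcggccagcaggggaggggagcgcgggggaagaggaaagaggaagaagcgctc
CDKN2A, downstream start, chr9:21974858-21975107, minus strand: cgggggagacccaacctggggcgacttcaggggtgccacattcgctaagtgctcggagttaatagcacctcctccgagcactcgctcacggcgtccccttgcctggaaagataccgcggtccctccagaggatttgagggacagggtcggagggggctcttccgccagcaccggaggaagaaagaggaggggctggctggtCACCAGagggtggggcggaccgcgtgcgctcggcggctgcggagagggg
The windows of CDKN2D and CDKN1B and the upstream one of CDKN2A held 0 matches. The downstream window of CDKN2A held 1 N-box match, which began 49 bases before the start. Among 35116 promoter windows of the same length, 20.8% held TGGGAA, 6.34% CACGTG, 32.0% CACNAG, 1.39% TTTCCCGC and 2.98% GTAAACA. These matches describe letters only, and the arrays do not tell from which start a CDKN2A transcript came.

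Values are MAS5 signals, a linear measure of brightness per probe set, and their trimmed mean was the same on every array. Each array reads RNA pooled over a culture, so fewer cells with a transcript and less of it per cell cannot be told apart. Of the 6 genes, 5 had a probe set bright enough to be tested among 7695 genes, and CDKN2B did not. A probe set passed this filter when its mean over all 20 arrays, taken on the log2 scale, reached a signal of 32.5. As a measure of dim signal, 37 probe sets of genes specific to other tissues, such as liver and muscle, had a median signal per array of 4.05 to 17.4 in CompE and 5.1 to 13.6 in DMSO. The 10th percentile of all signals was higher in CompE in 7 of 10 lines, at 3.08 to 8.93 in CompE and 2.9 to 5.67 in DMSO. It was 8.35 in CompE and 3.67 in DMSO in DND41, 8.93 and 4.97 in PF382, 6.41 and 3.75 in MOLT3, and 4.55 and 2.9 in HPB-ALL. The median of the other-tissue probe sets was higher in CompE in 8 of 10 lines. All 20 T-cell marker genes that had a probe set were tested, and CD3D, a chain of the T-cell receptor complex, had signals of 4460 to 9680 over all arrays. CD3E and LCK were also over the filter on all 20 arrays. Other markers were dim on some arrays: CD8A was over the filter on 12, RAG1 on 14 and CD1E on 15. CD2 ranged from 2.61 to 2890. The summed signal of 42 probe sets for markers of other blood and stromal cells was 568 to 3590 in CompE and 551 to 3570 in DMSO. CD79A, a B-cell receptor chain, reached 2470, with a median of 36 over all arrays and means of 212 in CompE and 291 in DMSO. PECAM1 reached 2050, and CD79B and KRT8 were over the filter on all 20 arrays. Of the 22 genes on this list of other markers, the 16 that fell under the filter had no test. The 3′ over 5′ signal ratio of the ACTB control, a measure of RNA integrity, was 9.76 in CompE and 3.32 in DMSO in KOPTK1 and at most 1.99 on the other arrays. In 9 of 10 lines this ratio was higher in CompE.

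Under CompE, 1 of the 5 tested inhibitors changed: CDKN2D (p19 INK4d), an inhibitor of CDK4 and CDK6, rose by 0.65 ± 0.141 on the log2 scale, or 1.57-fold (SE, n = 10 pairs, limma adjusted p = 0.016). Over all 7695 genes, 7.17% passed the same test, 3.94% being higher and 3.24% lower, and 1 call among 5 genes is too few to set the family apart from that background. CDKN1B (p27 KIP1) was at 0.19 ± 0.076, CDKN1C (p57 KIP2) at 0.21 ± 0.155, CDKN2A at 0.22 ± 0.181 and CDKN1A (p21 CIP1) at -0.07 ± 0.187. None of these 4 passed, with limma adjusted p of 0.126, 0.421, 0.476 and 0.846.

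**Figure D1:**
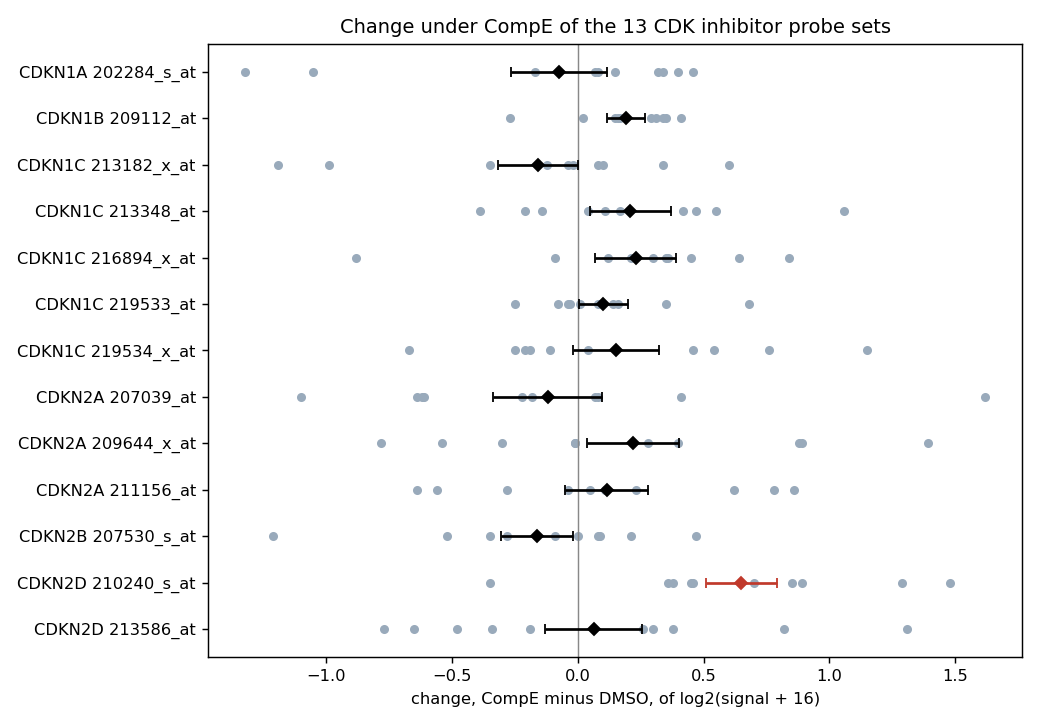
Change under CompE of each of the 13 probe sets, on the horizontal axis as CompE minus DMSO of log2(signal + 16). Grey points are the 10 lines, diamonds with bars the fitted mean ± SE, and red marks the probe set that passed the test over all probe sets; 9 of the 10 points of CDKN2D 210240_s_at lie right of 0.

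CDKN2D is the INK4 member whose level is known to follow the cell cycle in dividing cells. Its bright probe set, 210240_s_at, had signals in CompE of 342 in ALL-SIL, 262 in CCRF-CEM, 959 in CUTLL1, 408 in DND41, 1230 in HPB-ALL, 295 in KOPTK1, 835 in MOLT3, 358 in P12-ICHIKAWA, 383 in PF382 and 316 in RPMI8402. In DMSO the same lines had 183, 201, 511, 309, 434, 210, 332, 461, 277 and 189. The level was higher in CompE in 9 lines and lower in P12-ICHIKAWA alone, and the signal ranges of the treatments overlap. The change was greatest in HPB-ALL, at 1.48 on the log2 scale, followed by MOLT3 at 1.29, CUTLL1 at 0.89, ALL-SIL at 0.85 and RPMI8402 at 0.70. It lay between 0.36 and 0.46 in CCRF-CEM, DND41, PF382 and KOPTK1, and at -0.35 in P12-ICHIKAWA. The mean signal was 539 ± 341 in CompE and 311 ± 122 in DMSO (SD, n = 10). An exact sign-flip test over the 10 pairs, two-sided, gave p = 0.00391, where 0.00195 is the smallest that 10 pairs allow.

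CDKN2D passed whichever of the 10 lines was left out, with limma adjusted p from 0.00649 without P12-ICHIKAWA to 0.0442 without HPB-ALL. With the ACTB ratio as a covariate the change was 0.74 (limma adjusted p = 0.0301). It rests on 1 probe set: 213586_at, the other one for this gene, had signals of 5.51 to 46.0 in CompE and 3.17 to 46.9 in DMSO, under the filter in both arrays of 8 lines, and its change was 0.06 ± 0.193. With the mean of both probe sets the change was 0.36 (limma adjusted p = 0.0712). In the fit over all 22215 probe sets, where 1.71% passed and 0.828% were higher, 1 of the 13 members' probe sets passed, 210240_s_at (limma adjusted p = 0.0331). That count was 0 after leaving out any 1 of 7 lines (ALL-SIL, CUTLL1, DND41, HPB-ALL, MOLT3, PF382 or RPMI8402), 2 without KOPTK1, and 0 with the ACTB ratio as a covariate or with line as a random block.

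CDKN1B is the CIP/KIP member that marks resting lymphocytes, and its RNA was bright in every line. In CompE its signals were 983 in ALL-SIL, 1330 in CCRF-CEM, 1930 in CUTLL1, 1520 in DND41, 1960 in HPB-ALL, 1420 in KOPTK1, 1210 in MOLT3, 497 in P12-ICHIKAWA, 1180 in PF382 and 1410 in RPMI8402. In DMSO the same lines had 802, 1040, 1710, 1220, 1540, 1710, 1080, 492, 1060 and 1050. The signal was higher in CompE in 9 lines, with changes of 0.02 to 0.41 on the log2 scale, and KOPTK1 was at -0.27. The exact sign-flip test of CDKN1B gave p = 0.0176 (two-sided, 10 pairs), but the limma p adjusted over all genes was 0.126. KOPTK1 is the line whose ACTB ratio was 9.76 in CompE and 3.32 in DMSO. Without KOPTK1 the change was 0.24 (limma adjusted p = 0.0226), and with the ACTB ratio as a covariate it was 0.30 (limma adjusted p = 0.0452). These 2 fits are not separate checks, since the log2 ACTB ratio differed by 1.557 between treatments in KOPTK1 and by at most 0.542 elsewhere. The change of CDKN1B had a Pearson r of -0.78 with that difference over the 10 lines and -0.2 without KOPTK1. The part of RNA integrity in the KOPTK1 value was not tested. With each array centred on its median the change of CDKN1B was 0.12 (limma adjusted p = 0.458).

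CDKN1A, which blocks CDK2 complexes downstream of p53, was dim, and its changes lay above 0 in 7 lines and below 0 in 3. Its signals in CompE were 4.97 in ALL-SIL, 12.7 in CCRF-CEM, 98.3 in CUTLL1, 31.9 in DND41, 59.9 in HPB-ALL, 134 in KOPTK1, 42.4 in MOLT3, 54.8 in P12-ICHIKAWA, 30.4 in PF382 and 12.4 in RPMI8402. The same lines had 4.02, 5.76, 92.2, 104, 141, 93.3, 49.9, 47.8, 21.1 and 6.48 in DMSO. DND41 was at -1.32 and HPB-ALL at -1.05 on the log2 scale, MOLT3 was at -0.17, and the other 7 lines lay between 0.07 and 0.46. The mean change of -0.07 was 0.07 without DND41. Its exact sign-flip p was 0.695 (two-sided, 10 pairs). The differences in DND41 and HPB-ALL come from 1 pair of arrays each and were not tested.

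CDKN1C had 5 probe sets, and the 1 that passed the filter, 213348_at, had signals in CompE of 6.44 to 143 with a median of 33.7 and in DMSO of 4.62 to 93.3 with a median of 29.5. PF382 (143 in CompE, 92.4 in DMSO), MOLT3 (130 and 93.3), P12-ICHIKAWA (89.5 and 81.9) and CUTLL1 (60.5 and 68.2) were the 4 highest lines, and KOPTK1 (38.7 and 32.7) was the only other line over the filter on both arrays. The widest change, 1.06 on the log2 scale, was that of DND41, with 26.9 in CompE and 4.62 in DMSO, the line in which the 10th percentile of signal was 8.35 in CompE and 3.67 in DMSO, and the part of that in the value was not tested. Without DND41 the mean change was 0.11 (limma adjusted p = 0.703). The changes of the other 4 probe sets were -0.16 to 0.23, none past the test, and 219533_at stayed under the filter on all 20 arrays. Over the 10 DMSO arrays, 213348_at and 219534_x_at had a Pearson r of 0.94 and 213348_at and 216894_x_at one of 0.81, while 213348_at and 219533_at had 0.09. Probe sets whose names end in _x_at hold probes that may bind other transcripts too.

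CDKN2B (p15 INK4b), the neighbour of CDKN2A, was dim throughout. Its single probe set had 4.91 to 12.5 in CompE with a median of 7.03, and 2.93 to 36.5 in DMSO with a median of 7.82. Only the DMSO array of ALL-SIL, at 36.5, was over the filter, against 6.71 in CompE, and the fitted change over all lines was -0.16 ± 0.144 (exact sign-flip p = 0.332, 10 pairs). These signals lie in the range of genes of other tissues, so an order of the lines cannot be read from them.

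CDKN2A separated the lines more than any other inhibitor. On its brightest probe set, 209644_x_at, DND41 had 1940 in CompE and 1960 in DMSO, and HPB-ALL had 1130 in CompE and 1400 in DMSO. KOPTK1 followed with 520 in CompE and 276 in DMSO, and CUTLL1 with 242 and 243. The remaining lines had 39.5 (ALL-SIL), 36.0 (CCRF-CEM), 78.5 (MOLT3), 79.1 (P12-ICHIKAWA), 146 (PF382) and 64.6 (RPMI8402) in CompE, and 64.7, 73.6, 35.0, 56.1, 45.7 and 50.4 in DMSO. So 4 lines were at 242 or more on both arrays and 6 lines at 146 or less. The 90th percentile of the probe sets of other tissues was 29.3 to 75.9 on the CompE arrays and 25.4 to 46.6 on the DMSO arrays. As an _x_at probe set, 209644_x_at may also bind other transcripts. On 207039_at the means of these 6 lines over both arrays were 8.17 to 20.6, under the filter. The part of other transcripts in the signals of 209644_x_at was not tested. The arrays measure RNA, and whether the locus is deleted in the 6 lines was not tested.

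**Figure D2:**
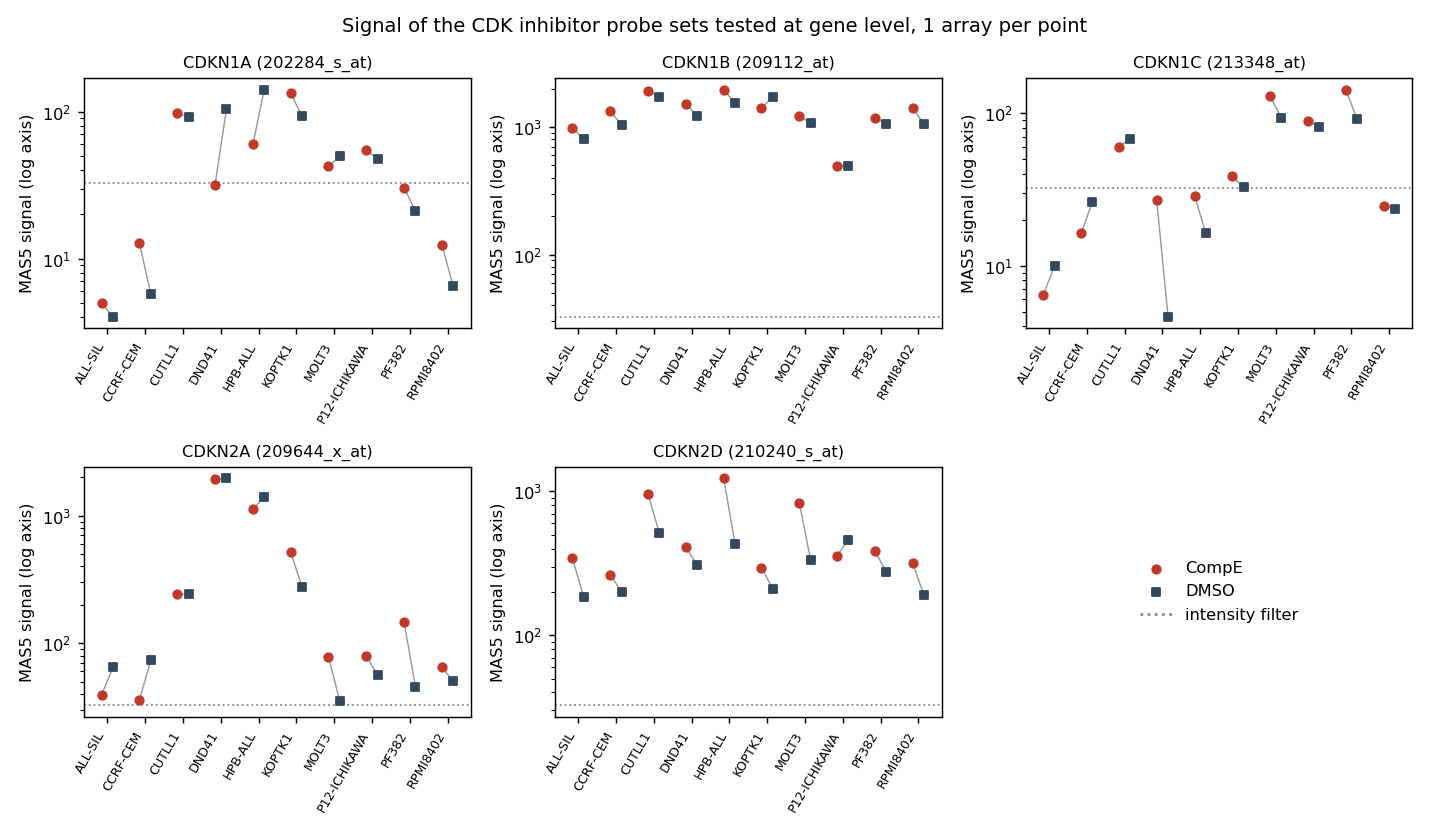
MAS5 signal, on a log axis, of the probe set tested for each of 5 inhibitors in the 10 lines, 1 array per point (circles CompE, squares DMSO, joined within a line). The dotted line is the intensity filter at 32.5; CDKN2A spans 36.0 to 1940 in CompE, while CDKN1B lies between 497 and 1960.

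The same 3 lines led on the second probe set of CDKN2A, 207039_at: DND41 had 250 in CompE and 286 in DMSO, HPB-ALL 187 and 177, and KOPTK1 149 and 108. CUTLL1 had 28.7 in CompE and 36.2 in DMSO there, and the other 6 lines at most 48.2. These probe sets had a Pearson r of 0.96 over the CompE arrays and 0.95 over the DMSO arrays, a description over 10 lines that share both probe sets' arrays. The third, 211156_at, did not exceed 52.8. On 209644_x_at, neighbouring lines in the order were taken as apart when their means over both arrays differed by more than 1.1 on the log2 scale. This is the 95% limit from the residual spread of that probe set. By that measure DND41 and HPB-ALL were not told apart, nor were KOPTK1 and CUTLL1, nor any neighbours among the 6 lowest lines. The gap between HPB-ALL and KOPTK1 was 1.69 and that between CUTLL1 and PF382 was 1.37. On 207039_at, with a limit of 1.21, the order broke elsewhere: the only gap past the limit was 1.56, between KOPTK1 and CUTLL1. There HPB-ALL and KOPTK1 (0.47) were not told apart, nor were CUTLL1 and PF382 (0.4). The change of CDKN2A under CompE on 209644_x_at was 0.22 ± 0.181 (exact sign-flip p = 0.336, 10 pairs). PF382 was at 1.39 and CCRF-CEM at -0.78, and without PF382 the change was 0.09.

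Genes around CDKN2A on the short arm of chromosome 9, not all in the same band, were set beside it. MTAP, an enzyme of methionine salvage that is the gene next to CDKN2A, had on its brightest probe set 13.5 in CompE and 6.23 in DMSO in P12-ICHIKAWA, 17.3 and 12.6 in PF382, and 6.61 and 7.87 in RPMI8402, the 3 lines under the filter on both arrays. ALL-SIL, with dim CDKN2A, had MTAP at 108 in CompE and 104 in DMSO on that probe set. On the 4 other MTAP probe sets ALL-SIL had 1.71 and 8.18, 22.6 and 42.3, 33 and 26.9, and 4.13 and 21.5. DND41, with the brightest CDKN2A, had 14.0 in CompE and 150 in DMSO on the brightest MTAP probe set. The direction of that difference was shared by 1 of the 4 other probe sets (17.3 in CompE and 48.2 in DMSO). The other 3 did not share it (70 and 53.9, 50.9 and 33.8, 17.9 and 1.57). In PF382, 4 of the 11 tested neighbours were under the filter on both arrays: MTAP and the further genes KLHL9, FOCAD and MLLT3. The other 7, which include RPS6, PLAA and TEK, had 65.8 to 11500 in CompE and 54.8 to 11400 in DMSO there. KLHL9, a substrate adaptor of a ubiquitin ligase, had 31.1 in CompE and 15 in DMSO there, against 419 to 867 in CompE and 401 to 938 in DMSO in the other 9 lines. FOCAD had 30.4 and 5.16 in PF382, against 108 to 646 and 113 to 809 elsewhere. MLLT3, a transcription elongation factor, had 28.5 and 5 in PF382, against 114 to 497 and 97.0 to 398 elsewhere. These 3 genes and CDKN2A all read higher in the CompE array of PF382 than in its DMSO array, and the 10th percentile of all signals in PF382 was 8.93 in CompE and 4.97 in DMSO. The part of that dim signal in the PF382 values was not tested. KLHL9, FOCAD and MLLT3 are members of the fixed list of neighbours that were chosen once their values were known.

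**Figure D3:**
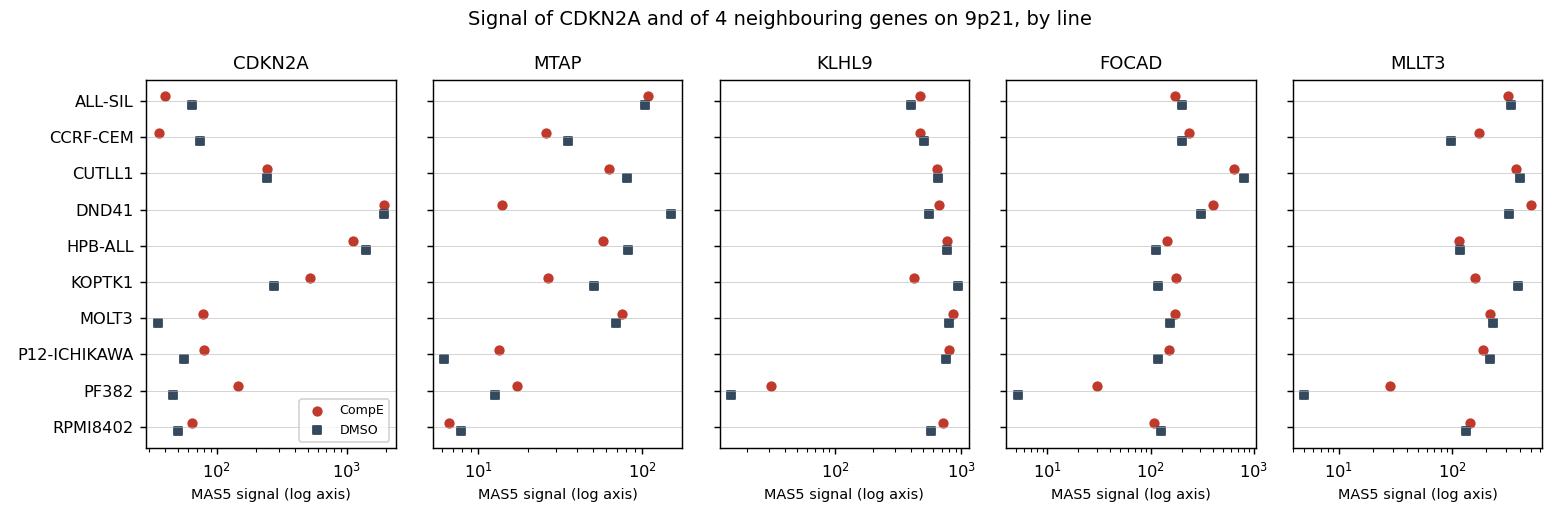
MAS5 signal, on a log axis, of CDKN2A and of 4 genes of the same chromosome arm in each line (circles CompE, squares DMSO, 1 array each). PF382 lies far below the other lines for KLHL9, FOCAD and MLLT3, and 4 lines stand above the rest for CDKN2A.

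The lines differed in all 5 tested inhibitors by limma's F test across lines (adjusted p from 2.88e-08 for CDKN2A to 0.00073 for CDKN2D), as did 76.3% of all tested genes. Of the 13 probe sets, 8 passed in the fit over all probe sets, beside 49.2% of all. This test uses the CompE and DMSO arrays of a line as its replicates. From the highest to the lowest line mean the span was 29.4-fold for CDKN2A on 209644_x_at, 3.58-fold for CDKN1B and 3.05-fold for CDKN2D, on the signal + 16 scale. The lowest CDKN2A line mean was 50.9, in ALL-SIL. The 90th percentile of the other-tissue probe sets was 29.3 to 75.9 in CompE and 25.4 to 46.6 in DMSO. The part of dim signal in the CDKN2A fold was not tested. For CDKN1A and CDKN1C no fold is given, since their lowest lines lie in the range of genes of other tissues. For CDKN1B the order ran from CUTLL1, HPB-ALL and KOPTK1 down to ALL-SIL and P12-ICHIKAWA. P12-ICHIKAWA was 0.82 on the log2 scale under ALL-SIL, and ALL-SIL 0.33 under PF382, both past the limit of 0.32. For CDKN1A the order was led by KOPTK1, CUTLL1 and HPB-ALL while RPMI8402, CCRF-CEM and ALL-SIL had at most 12.7 on either array and have no order among themselves. On the tested probe sets of CDKN1A, CDKN1C and CDKN2D no neighbours in the order were past their limit. On 216894_x_at of CDKN1C the gap of 0.76 between KOPTK1 and ALL-SIL was just past its limit of 0.75.

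For each tested inhibitor the most similar genes were taken by Pearson r over 10 lines, as a description of the highest values and with no test. By DMSO level they were CR1, CD1E and PPP3CB for CDKN1A (r = 0.93, 0.92 and 0.91), DCK, VIPR2 and YME1L1 for CDKN1B (0.91, 0.88 and 0.87), and CSTF1, GGA2 and CBR1 for CDKN1C (0.95, 0.94 and 0.93). For CDKN2A they were LMF2, TRPS1 and PAFAH2 (0.93, 0.91 and 0.90), and for CDKN2D NPEPPSP1, SMCHD1 and ELAC1 (0.91, 0.89 and 0.88). By change under CompE they were ILF2, SARS1 and PRAF2 for CDKN1A (0.91, 0.91 and 0.90), UGDH, ARFIP1 and PELI2 for CDKN1B (0.95, 0.94 and 0.94), and CIDEC, H4C4 and F7 for CDKN1C (0.95, 0.94 and 0.93). For CDKN2A they were VSIG4, LOC389906 and CHRNB2 (0.94, 0.91 and 0.90), and for CDKN2D MTERF4, RALGPS2 and BIN2 (0.88, 0.86 and 0.86). Each point is a line and all genes share its arrays. Among pairs of the inhibitors themselves, the r values largest in size are given. The DMSO levels of CDKN1A and CDKN2A had r = 0.75 and those of CDKN1A and CDKN2D 0.70, and the changes of CDKN1A and CDKN1C had r = -0.72. In this last pair, of dim genes, DND41 was at -1.32 for CDKN1A and 1.06 for CDKN1C, and HPB-ALL at -1.05 and 0.47. How far that r rests on these lines was not tested.

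CDK4 and CDK6, the kinases that INK4 proteins bind, fell. Counts in this and the following gene lists stand beside 3.94% of all tested genes that were higher and 3.24% that were lower, and a count of 1 in a list of 11 to 20 genes is too few to set that list apart. Of 13 tested partner kinases and cyclins, 2 fell and 0 rose, with a median change of -0.06 beside 0.04 for all genes: CDK6 by 0.79 ± 0.145 (limma adjusted p = 0.00976) and CDK4 by 0.42 ± 0.090 (limma adjusted p = 0.015), both lower in CompE in all 10 lines. CDK4 had 621 to 1300 in CompE and 723 to 1590 in DMSO. CDK6 was dimmer, at 29.4 to 166 in CompE (mean 81.2) and 60 to 264 in DMSO (mean 146). Its lowest CompE signal, 29.4 in P12-ICHIKAWA, was under the filter, and the part of dim signal in its changes was not tested. The calls of both kinases held whichever line was left out. In HPB-ALL, the line with the greatest rise of CDKN2D, CDK4 was at -1.09, the lowest change of any line. In MOLT3, with the next greatest rise of CDKN2D (1.29), CDK4 was at -0.10, the smallest fall of any line. Over the 10 lines the change of CDKN2D had a Pearson r of -0.40 with that of CDK4 and 0.19 with that of CDK6, not tested. In P12-ICHIKAWA, where CDKN2D was lower, CDK4 was at -0.24 and CDK6 at -1.35.

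**Figure D4:**
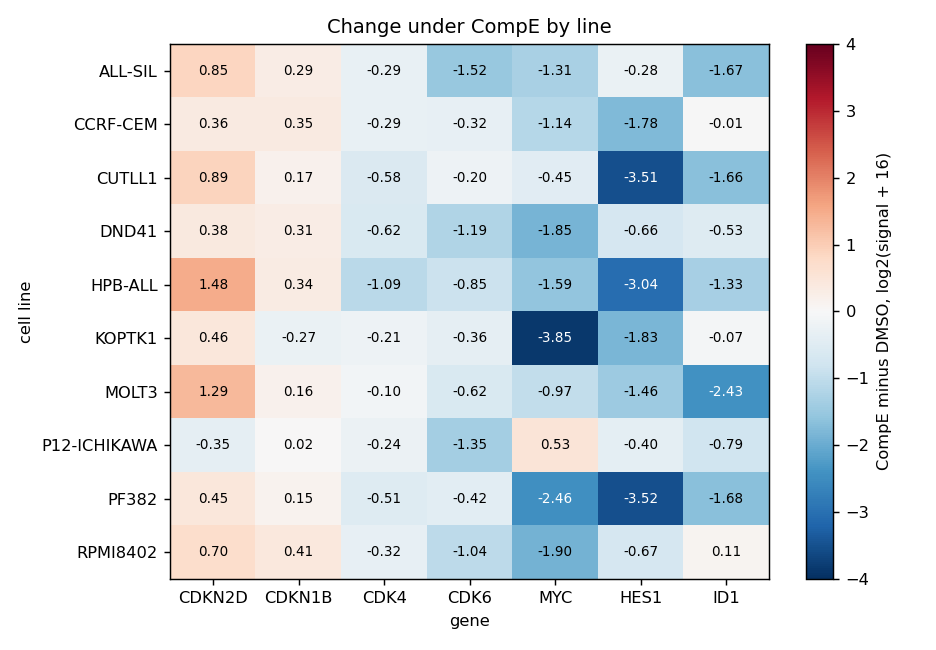
Change under CompE (CompE minus DMSO of log2(signal + 16)) in each line for CDKN2D, CDKN1B, the kinases CDK4 and CDK6, and 3 regulators; each cell is 1 pair of arrays and prints its value. CDK4 and CDK6 are below 0 in all 10 lines, CDKN2D is below 0 in P12-ICHIKAWA, where MYC is at 0.53. MYC is lowest in KOPTK1, at -3.85, where CDKN2D is at 0.46.

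Pocket proteins and E2F factors carry the signal onward from CDK4 and CDK6. Of 12 tested, 1 fell and 0 rose (median -0.11): E2F5 by 0.65 ± 0.186 (limma adjusted p = 0.0452), a call that 2 of the 10 leave-out fits kept (1 line omitted in each). The E2F5 call was lost when its probe sets were averaged (-0.28, limma adjusted p = 0.201). After adjusting for the ACTB ratio it was also lost, with a change of -0.60 (limma adjusted p = 0.134). RB1 was at -0.24 ± 0.089 (limma adjusted p = 0.104). Of 14 genes that turn over inhibitor proteins, 1 fell and 0 rose (median -0.10). It was RBX1, a subunit of cullin ubiquitin ligases, by 0.29 ± 0.083 (limma adjusted p = 0.0466, kept in 2 of the 10 leave-out fits). After adjusting for the ACTB ratio RBX1 was at -0.16 (limma adjusted p = 0.281). The cullin CUL4A was at 0.25 ± 0.082 (limma adjusted p = 0.0735). SKP2, which was named after its value was seen, was at -0.20 ± 0.109 (limma adjusted p = 0.266).

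Of 15 tested genes of the p53 axis, which also induces CDKN1A, 1 rose and 0 fell (median 0.09): XPC, a DNA damage sensor, by 0.37 ± 0.102 (limma adjusted p = 0.0399, kept in 3 of the 10 leave-out fits). The XPC call was lost after adjusting for the ACTB ratio, though the change was no smaller (0.40, limma adjusted p = 0.0725). It was also lost with median centring (0.30, limma adjusted p = 0.0928). The stress-response gene SESN1 was at 0.31 ± 0.102 (limma adjusted p = 0.0751). Of 12 tested genes on a list of Polycomb repressors of the INK4 locus, 2 rose and 0 fell (median 0.17). That list also holds KDM6B, a histone demethylase that is not a Polycomb repressor, at 0.25 ± 0.155 (limma adjusted p = 0.322). EZH1, a histone methyltransferase, rose by 0.50 ± 0.123 (limma adjusted p = 0.0256, kept in 7 of the 10 leave-out fits), and CBX7, a reader of its mark, by 0.42 ± 0.118 (limma adjusted p = 0.0448, kept in 3). After adjusting for the ACTB ratio neither passed, EZH1 being at 0.36 (limma adjusted p = 0.137) and CBX7 at 0.28 (limma adjusted p = 0.221). EZH1 was also lost when its probe sets were averaged (0.35, limma adjusted p = 0.0886) and CBX7 with median centring (0.35, limma adjusted p = 0.0687).

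Of 20 tested transcriptional regulators of CDK inhibitors, 3 fell and 1 rose (median 0.05). The repressor HES1 fell by 1.71, the transcription factor MYC fell by 1.5 and ID1, an antagonist of E proteins, fell by 1.01, while SMAD3, which carries TGF-beta signals, rose by 0.44 ± 0.123 (limma adjusted p = 0.042). The SMAD3 call was kept in 3 of the 10 leave-out fits, and the changes of its 3 other probe sets were -0.22 to 0.24. SMAD3 was at 0.17 when its probe sets were averaged (limma adjusted p = 0.357) and at 0.38 after adjusting for the ACTB ratio (limma adjusted p = 0.142). HES1, MYC and ID1 had limma adjusted p of 0.00775, 0.0107 and 0.0186. HES1 was at -0.68 when its 3 probe sets were averaged (limma adjusted p = 0.044). MYC was lost after adjusting for the ACTB ratio (-1.06, limma adjusted p = 0.057), and ID1 without HPB-ALL (limma adjusted p = 0.0504). By line, HES1 changed most in PF382 (-3.52), CUTLL1 (-3.51) and HPB-ALL (-3.04), and MYC most in KOPTK1 (-3.85), PF382 (-2.46) and RPMI8402 (-1.90). CDKN2D was at 0.45 in PF382, 0.89 in CUTLL1, 1.48 in HPB-ALL, 0.46 in KOPTK1 and 0.70 in RPMI8402. In P12-ICHIKAWA, MYC was at 0.53, HES1 at -0.40 and CDKN2D at -0.35. Over the 10 lines the change of CDKN2D had a Pearson r of -0.16 with that of MYC, -0.38 with that of HES1 and -0.51 with that of ID1, not tested.

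Of 11 tested genes around CDKN2A and CDKN2B, 1 fell and 0 rose (median 0.03): HAUS6, of the augmin complex of the spindle, by 0.60 ± 0.147 (limma adjusted p = 0.0253). DENND4C was at 0.22 ± 0.095 (limma adjusted p = 0.157). Of 5 tested genes around CDKN1C on chromosome 11, 0 passed, with TSPAN32 at 0.36 ± 0.152 and NAP1L4 at 0.10 ± 0.116 (limma adjusted p = 0.155 and 0.655). Of 20 T-cell markers, LCK rose by 0.26 ± 0.062 and CD3G fell by 0.54 ± 0.135 (limma adjusted p = 0.0228 and 0.0271). Of 6 tested markers of other blood and stromal cells, 0 passed, with COL1A2 at 0.34 and PECAM1 at 0.18 (limma adjusted p = 0.295 and 0.395), and of 5 tested genes of other tissues, 0 passed, with CRYGD at 0.39 and SFTPC at 0.25 (limma adjusted p = 0.154 and 0.307).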

How the data were processed

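Affymetrix arrays measured RNA of each of the 10 lines after CompE and after DMSO. The authors deposited intensity values, linear MAS5 signals according to the submitters' processing notes; the sources used here give neither its version nor its settings. The trimmed mean (2% off each end) was 250 on all 20 arrays, so the deposited scaling was kept. MAS5 values are noisy near 0.

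Of 22277 probe sets, 62 were controls; of the others 19064 named 1 gene, 1043 several and 2108 none in the platform's annotation. A gene was represented by its brightest probe set on average, and genes under the 40th percentile of mean signal were left out, which left 7695. Values were analysed as log2(signal + 16), so changes understate the fold of dim genes. Limma 3.58.1 (R 4.3.3) was fitted with the line as a fixed term (the replicate block), a variance trend and Benjamini-Hochberg adjustment at 0.05, two-sided; a second fit took all 22215 non-control probe sets. The pairing comes from the titles, and each of the 10 CompE arrays had its highest correlation with its own line's DMSO array. The labels do not say whether a line's arrays came from separate cultures.

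Named genes were all members' probe sets, the 3 genes most like each tested member, MTAP, and from each fixed list up to 5 genes past the threshold, or the 2 with the smallest adjusted p where fewer than 2 passed; others are said to be chosen after their values were seen. Members and lists were chosen with earlier results of these data known. In 5 simulated rounds of 200 changed genes among 7695, the fit recovered 61.6% of changes of 0.5, 86.4% of 0.75 and 94.4% of 1 on the log2 scale, and 5.83% of calls were false. These rates describe those rounds only, and the rates for the calls made on the real arrays were not tested. Other pseudocounts, filters, normalizations, blocks, covariates and sets of lines were tried. The number of arrays limits the precision.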

Additional observations from a re-analysis of the deposited data

Results flagged for a closer look

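Among 39 groups of 10 values (the CompE signals, the DMSO signals and the changes of the 13 probe sets), 3 had a line whose gap to its neighbour was over 0.466 of the whole range on the log2(signal + 16) scale, and chance gives about 1 in 20. In CompE, P12-ICHIKAWA had the lowest CDKN1B signal, 497, with 492 in DMSO. PF382 had the highest CompE signal of the CDKN1C probe set 213182_x_at, 27.9, with 12.9 in DMSO, both under the filter. CCRF-CEM had the highest CompE signal of the CDKN1C probe set 219533_at, 12.8, with 2 in DMSO, and both values of that line are under the filter.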

How the results depend on the processing

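The rise of CDKN2D kept its direction in all 11 alternatives and passed in 9, with limma adjusted p from 0.0144 to 0.977. It was 0.36 (adjusted p = 0.0712) with the mean of its probe sets and 0.65 (adjusted p = 0.977) with no replicate block, and 0.56 to 0.76 when a line was left out. The count of inhibitor genes called was 0 with the mean of probe sets and with no replicate block, 2 once the ACTB ratio was a covariate, and 1 to 2 when a line was left out. At the probe set level it was 0 with no replicate block, a random replicate block or the ACTB ratio, and 0 to 2 when a line was left out. Of all genes, 552 were called, against 0 with no replicate block, 318 with the ACTB ratio and 298 without the 3 lines of the other medium label, and 181 to 1031 when a line was left out. The lowest of these counts was without HPB-ALL and the highest without KOPTK1. CDKN1A was at 0.03 with a pseudocount of 1 (exact sign-flip p = 0.918, 10 pairs) and -0.13 to 0.07 when a line was left out. The replicate block is the cell line, and the fit with no replicate block lets the differences between lines into the error. CDKN1C and CDKN2A passed in 0 alternatives and kept their direction in all that tested them. Dim signal limits CDKN2B, CDKN1A and CDKN1C. The cause of each difference was not tested.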
